A study of Penicillium oxalicum with 6 samples.

Results

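The genes described here encode secreted cellobiohydrolases and endoglucanases of *Penicillium oxalicum*, a filamentous fungus used to produce plant biomass-degrading enzymes: cellobiohydrolase I (POX_d04867, family GH7), cellobiohydrolase II (POX_d05671, family GH6), endoglucanase II (POX_c03950, family GH5), a GH7 endoglucanase (POX_d04883) and the endoglucanase Cel5C (POX_a00030, family GH5). They are 5 of the 9822 annotated genes and of the 11159 rows in each table. They are not the 5 most abundant cellulase genes: the endoglucanase gene POX_a00764 had a higher FPKM than cellobiohydrolase I and the 3 endoglucanase genes of the set in every library, and POX_d04884 a higher one than those 3 endoglucanase genes in every GXUR001 library. All 5 stand among the genes that the study's own table gives as changed between the same strains, so they were chosen by their measured values in this contrast. Their differences between the strains are therefore given as a description, without a test.

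Cellulose is a crystalline polymer of glucose, and fungi take it apart with several enzymes acting together. Endoglucanases cut the chain in its middle, cellobiohydrolases run along the chain from its ends and release cellobiose, β-glucosidases split cellobiose to glucose, and copper-dependent lytic monooxygenases break chains by oxidation. In *Penicillium* and *Trichoderma*, cellobiohydrolases I and II are known as the most abundant proteins of the secreted mixture, and their genes are induced by cellulose and repressed by glucose.

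GXUR001 is strain TE4-10 in which the regulatory gene *PoxCxrC* was deleted and *PoxAmyR* (POX_f08097), an activator of amylase genes, was overexpressed. Its libraries are titled by a number code and were taken as GXUR001 from their genotype label, and the deletion was not checked in the data, since *PoxCxrC* could not be paired with an ID. TE4-10, the parent, is labelled WT, yet it is itself a mutant obtained by ethyl methanesulfonate and Co60 treatment of strain A2-13, a line engineered to express the raw starch-degrading glucoamylase gene *PoxGA15A* from the cellulose-inducible *PoxEgCel5B* promoter, so both strains carry that construct and the mutations of TE4-10. Poly(A) RNA was taken from mycelium grown for 24 h on glucose and then kept for 24 h in the enzyme-producing medium. The labels name raw starch as the sole carbon source of that medium, whereas the methods name wheat bran plus Avicel, a microcrystalline cellulose. There were 3 libraries of GXUR001 (replicates 1, 2 and 3) and 2 of TE4-10 (replicates 1 and 3), and TE4-10 replicate 2 was not analysed here. In RNA from whole mycelium, fewer cells expressing a gene and less RNA of it per cell cannot be told apart.

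The values were FPKM (fragments mapped, scaled for gene length and library total), which sum to 1228620 to 1295490 in the GXUR001 libraries, against 1274150 and 1218690 in the TE4-10 libraries. Read totals were stated only as 1 rounded figure for all samples, and the step size of low values gave a depth ratio of GXUR001 over TE4-10 between 1.05 and 1.09, and between 0.999 and 1.00 within a strain. *PoxAmyR* had 90.6, 84.1 and 74.2 FPKM in GXUR001, against 62.8 and 66.7 FPKM in TE4-10, with no overlap between the strains. Since a few rows outside the annotation took very different shares of the libraries (the largest had 75695, 47308 and 39330 FPKM in GXUR001, against 7.88 and 31698 FPKM in TE4-10), each library was also rescaled, dividing it by the median over genes of its FPKM relative to the gene's geometric mean. The median log2 fold change over all 9636 genes tested was 0.00 after rescaling and −0.26 with FPKM as deposited. Fold changes below are on the scale of log2(rescaled FPKM + 1), GXUR001 over TE4-10, unless FPKM as deposited is named.

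Cellobiohydrolase II stood furthest apart between the strains. It had 9657, 8968 and 7239 FPKM in GXUR001, against 4608 and 2321 FPKM in TE4-10. The lowest GXUR001 library was above the highest TE4-10 library, by 1.81 times after rescaling. Mean FPKM was 8621 ± 1246 in GXUR001 (SD, n = 3) and 3464 ± 1617 in TE4-10 (SD, n = 2), and the fitted log2 fold change was 1.66 (standard error 0.33), a 3.17-fold higher level in GXUR001. This enzyme works from the non-reducing end of the cellulose chain.

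Cellobiohydrolase I, which works from the opposite, reducing end, overlapped between the strains. It had 6461, 5357 and 3787 FPKM in GXUR001, against 4823 and 2297 FPKM in TE4-10. GXUR001 replicate 3 lay below TE4-10 replicate 1, at 0.907 of its rescaled value. The means were 5202 ± 1344 FPKM in GXUR001 (SD, n = 3) and 3560 ± 1787 FPKM in TE4-10 (SD, n = 2), a log2 difference of 0.89 with a standard error of 0.40.

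Among the 3 endoglucanase genes the difference was widest for endoglucanase II. Its FPKM was 3234, 2779 and 1949 in GXUR001, against 1628 and 749 in TE4-10, and no GXUR001 library overlapped TE4-10. The log2 fold change was 1.51 (standard error 0.40), or 2.85-fold. The GH7 endoglucanase, of the same enzyme family as cellobiohydrolase I, had 2862, 2617 and 2070 FPKM in GXUR001, against 2155 and 1219 FPKM in TE4-10. As deposited, its GXUR001 replicate 3 lay just under TE4-10 replicate 1, whereas after rescaling the lowest GXUR001 library was 1.11 times the highest TE4-10 library. Its log2 fold change was 0.90 (standard error 0.30).

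Cel5C did not separate the strains. It had 1063, 991 and 839 FPKM in GXUR001, against 1228 and 704 FPKM in TE4-10, so that all 3 GXUR001 values lay between those of TE4-10. The means were 964 ± 114 FPKM in GXUR001 (SD, n = 3) and 966 ± 371 FPKM in TE4-10 (SD, n = 2). As deposited the ratio of the means was 0.998, and the fitted log2 fold change was 0.05; after rescaling it was 0.32 with a standard error of 0.27.

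**Figure D1:**
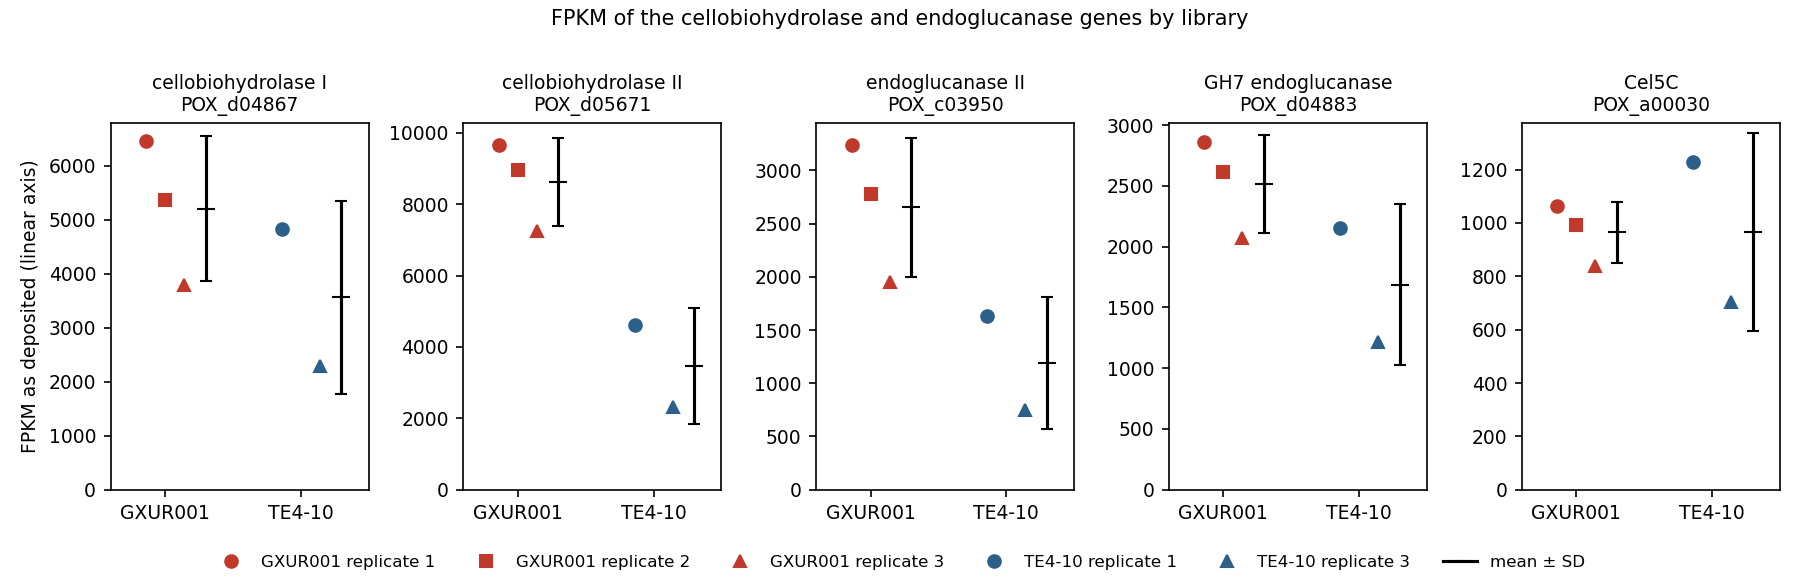
FPKM as deposited (linear axes from 0, one scale per gene) of the 5 cellulase genes, with 3 GXUR001 libraries on the left of each panel and 2 TE4-10 libraries on the right; bars are the mean ± SD. Cellobiohydrolase II at 7239 FPKM or more in GXUR001 lies above its 4608 and 2321 FPKM in TE4-10, whereas the 1063 to 839 FPKM of Cel5C in GXUR001 fall between 1228 and 704 FPKM in TE4-10.

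Counted over the set, GXUR001 lay above both TE4-10 libraries for 3 of the 5 genes after rescaling (cellobiohydrolase II, endoglucanase II and the GH7 endoglucanase) and for 2 of 5 as deposited, where the GH7 endoglucanase dropped out. The same was true of 26.7% of all genes tested after rescaling and of 12.6% as deposited. Since the genes were picked on this contrast, nothing is read from their count against those shares. The median log2 fold change of the 5 genes was 0.90 after rescaling, where all genes tested had a median of 0.00, and 0.62 as deposited, where all genes had −0.26. Relative to actin (POX_c04656), a structural gene commonly used as an internal standard, the log2 differences were 0.96 for cellobiohydrolase I, 1.74 for cellobiohydrolase II, 1.59 for endoglucanase II, 0.98 for the GH7 endoglucanase and 0.40 for Cel5C. Actin itself had 1751, 1687 and 1650 FPKM in GXUR001, against 2038 and 2305 FPKM in TE4-10.

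These values rested heavily on which TE4-10 library was kept. Without TE4-10 replicate 1 the median log2 fold change of the 5 genes was 1.39, and without TE4-10 replicate 3 it was 0.51. With TE4-10 replicate 1 left out, the log2 fold changes of cellobiohydrolase II and Cel5C were 2.12 and 0.69. With TE4-10 replicate 3 left out they were 1.20 and −0.053, so that the direction of Cel5C turned.

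The 5 genes took 1.89%, 1.68% and 1.23% of all FPKM in the GXUR001 libraries, against 1.13% and 0.598% in the TE4-10 libraries. Dividing a library by a factor leaves this share unchanged, but the share does depend on the rows that form the library total. Every GXUR001 library was above both of TE4-10. The mean share was 1.60% ± 0.341 in GXUR001 (SD, n = 3) and 0.866% ± 0.379 in TE4-10 (SD, n = 2), 1.85 times as much in GXUR001, and 1.95 times when only annotated genes formed the total. Cellobiohydrolase II alone took 0.786%, 0.726% and 0.559% in GXUR001, against 0.362% and 0.190% in TE4-10. The share of Cel5C was 0.0866%, 0.0802% and 0.0648% in GXUR001, against 0.0964% and 0.0578% in TE4-10.

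Among the annotated genes of a library, cellobiohydrolase II ranked 8, 8 and 8 by FPKM in GXUR001, against 22 and 51 in TE4-10. Cellobiohydrolase I ranked 10, 14 and 29 in GXUR001, against 18 and 53 in TE4-10. Endoglucanase II ranked 33, 42 and 85 in GXUR001, against 91 and 255 in TE4-10. Cellobiohydrolase II thus kept its place in all 3 GXUR001 libraries, though its FPKM varied by 1.33 times among them, and it did not keep its place in TE4-10. The other genes changed rank between libraries of both strains. The GH7 endoglucanase ranked 38, 47 and 72 in GXUR001, against 66 and 130 in TE4-10, and Cel5C ranked 150, 175 and 236 in GXUR001, against 141 and 275 in TE4-10.

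The order of the mean levels, which FPKM allows since it is per length, differed between the strains. In GXUR001 it ran from cellobiohydrolase II through cellobiohydrolase I, endoglucanase II (2654 ± 652 FPKM) and the GH7 endoglucanase (2516 ± 406 FPKM) to Cel5C, and only endoglucanase II and the GH7 endoglucanase overlapped as neighbours. In TE4-10 it ran from cellobiohydrolase I through cellobiohydrolase II, the GH7 endoglucanase (1687 ± 662 FPKM) and endoglucanase II (1188 ± 622 FPKM) to Cel5C. There the neighbours overlapped between libraries for both cellobiohydrolases, for the GH7 endoglucanase with endoglucanase II, and for endoglucanase II with Cel5C.

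The division of transcript among the 5 genes varied less between libraries of 1 strain than their levels did. Within GXUR001 it still shifted from replicate 1 to replicate 3, up for cellobiohydrolase II and down for cellobiohydrolase I. Cellobiohydrolase II made up 41.5%, 43.3% and 45.6% of their summed FPKM in GXUR001, against 31.9% and 31.8% in TE4-10. Cellobiohydrolase I made up 27.8%, 25.9% and 23.8% in GXUR001, against 33.4% and 31.5% in TE4-10. Neither range overlapped between the strains, and the 2 differences had opposite directions. Both cellobiohydrolases together held 69.2%, 69.2% and 69.4% in GXUR001, against 65.3% and 63.3% in TE4-10.

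Of the endoglucanases, endoglucanase II had the larger portion in GXUR001 and the other 2 the larger portion in TE4-10. Endoglucanase II made up 13.9%, 13.4% and 12.3% in GXUR001, against 11.3% and 10.3% in TE4-10. The GH7 endoglucanase made up 12.3%, 12.6% and 13.0% in GXUR001, against 14.9% and 16.7% in TE4-10. Cel5C made up 4.57%, 4.78% and 5.28% in GXUR001, against 8.51% and 9.66% in TE4-10. None of the 5 portions overlapped between the strains, but portions of 1 total are not independent of each other. The genes were picked on this contrast and other sets of genes were not counted in this way, so nothing is read from this count.

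**Figure D2:**
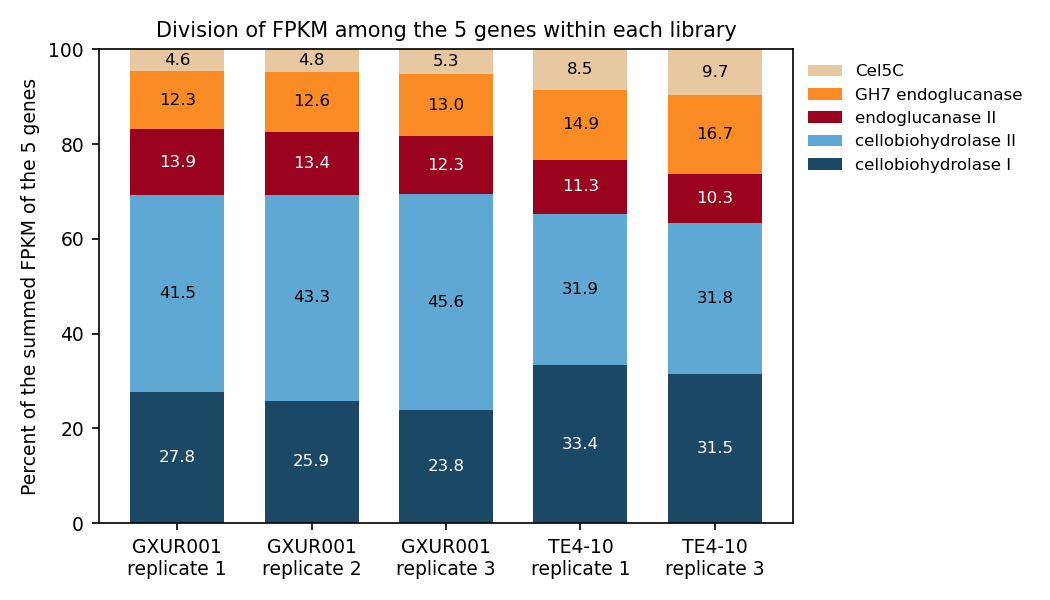
Percent of the summed FPKM of the 5 cellulase genes taken by each gene, one bar per library, with the 3 GXUR001 libraries left of the 2 TE4-10 libraries. Cellobiohydrolase II takes 41.5% to 45.6% in GXUR001, against 31.9% and 31.8% in TE4-10, and Cel5C takes 4.57% to 5.28% in GXUR001, against 8.51% and 9.66% in TE4-10.

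Ratios between genes within a library, in which any scaling cancels, separated the strains for 8 of the 10 pairs. The pairs share genes, so they are not independent, and the genes were picked on this contrast. The same count was not made over pairs of all genes, so nothing is read from it. The ratio of cellobiohydrolase II to cellobiohydrolase I was 1.49, 1.67 and 1.91 in GXUR001, against 0.955 and 1.01 in TE4-10, a log2 difference of 0.78. The ratio of cellobiohydrolase II to the GH7 endoglucanase was 3.37, 3.43 and 3.50 in GXUR001, against 2.14 and 1.90 in TE4-10. That of cellobiohydrolase II to Cel5C showed the widest gap of all pairs, with 9.08, 9.05 and 8.62 in GXUR001, against 3.75 and 3.30 in TE4-10, a log2 difference of 1.34. In all 3 of these pairs cellobiohydrolase II was the gene with the larger value relative to its partner in GXUR001.

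Endoglucanase II went with cellobiohydrolase II in this respect. The ratio of cellobiohydrolase I to endoglucanase II was 2.00, 1.93 and 1.94 in GXUR001, against 2.96 and 3.07 in TE4-10, so that endoglucanase II had the larger relative level in every GXUR001 library. The ratio of endoglucanase II to the GH7 endoglucanase was 1.13, 1.06 and 0.941 in GXUR001, against 0.756 and 0.614 in TE4-10, and that of endoglucanase II to Cel5C was 3.04, 2.81 and 2.32 in GXUR001, against 1.33 and 1.06 in TE4-10. The ratio of cellobiohydrolase II to endoglucanase II overlapped between the strains, with 2.99, 3.23 and 3.71 in GXUR001, against 2.83 and 3.10 in TE4-10.

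In its difference between the strains, the GH7 endoglucanase went with cellobiohydrolase I, its relative in family GH7. Between GXUR001 libraries, however, the log2 ratio of these genes had an SD of 0.15. The SD was 0.027 for cellobiohydrolase I to endoglucanase II and 0.026 for cellobiohydrolase II to the GH7 endoglucanase. The ratio of cellobiohydrolase I to the GH7 endoglucanase was 2.26, 2.05 and 1.83 in GXUR001, against 2.24 and 1.88 in TE4-10, and the log2 difference was −0.01. Both exceeded Cel5C by more in GXUR001 than in TE4-10. The ratio of cellobiohydrolase I to Cel5C was 6.08, 5.41 and 4.51 in GXUR001, against 3.93 and 3.26 in TE4-10, and that of the GH7 endoglucanase to Cel5C was 2.69, 2.64 and 2.47 in GXUR001, against 1.75 and 1.73 in TE4-10. Measured against cellobiohydrolase I, 1.16% of all genes had a higher ratio in every GXUR001 library and 37.3% a lower one. Of the 4 other cellulase genes, 2 had a higher ratio (cellobiohydrolase II and endoglucanase II), Cel5C a lower one and the GH7 endoglucanase an overlapping one. Since these genes were picked on this contrast, nothing is read from them against those shares.

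**Figure D3:**
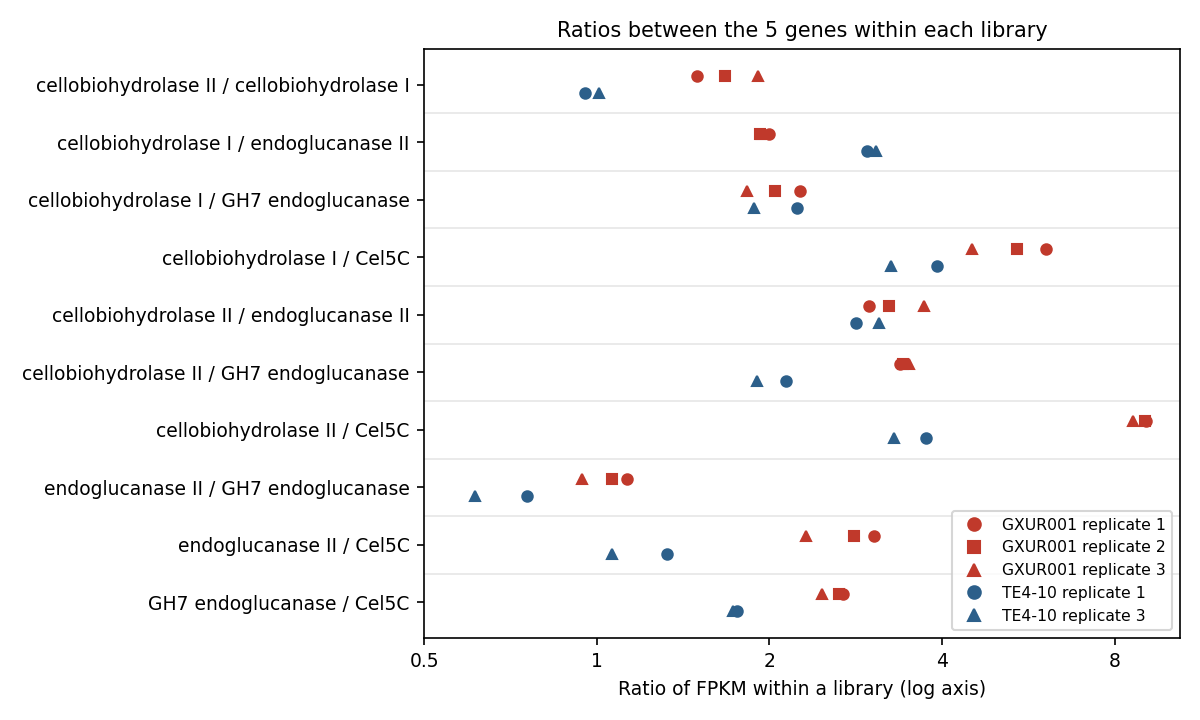
Ratio of FPKM within a library (log axis) for each of the 10 pairs of the 5 cellulase genes; red symbols are GXUR001 libraries, drawn above the blue TE4-10 libraries, and symbol shapes give the replicate. Cellobiohydrolase II over Cel5C lies at 8.62 to 9.08 in GXUR001, against 3.75 and 3.30 in TE4-10, and the 2 pairs that overlap are cellobiohydrolase I over the GH7 endoglucanase and cellobiohydrolase II over endoglucanase II.

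The 5 genes were highest and lowest in the same libraries. In both strains replicate 1 had the highest and replicate 3 the lowest FPKM for all 5 genes, an order that 9.97% of all genes tested also had, with GXUR001 replicate 2 in between. The highest library exceeded the lowest by 1.71 times in GXUR001, against 2.10 times in TE4-10, for cellobiohydrolase I, and by 1.33 times in GXUR001, against 1.99 times in TE4-10, for cellobiohydrolase II. Endoglucanase II varied by 1.66 times in GXUR001, against 2.17 times in TE4-10. Cel5C, the least abundant, varied least in both strains, by 1.27 times in GXUR001, against 1.74 times in TE4-10.

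After rescaling, the spread between libraries of 1 strain was wider for the 5 genes than the median spread over all genes. The median SD of log2 rescaled FPKM for the 5 genes was 0.33 in GXUR001 and 0.66 in TE4-10. Over the 9334 genes tested that were above 0 in every library it was 0.13 in GXUR001 and 0.16 in TE4-10, and over the 1912 genes with a mean of at least 100 FPKM it was 0.11 in GXUR001 and 0.15 in TE4-10. The genes vary together, so the 5 of them do not give 5 separate readings of the difference between the strains. What set the libraries apart was not tested.

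**Figure D4:**
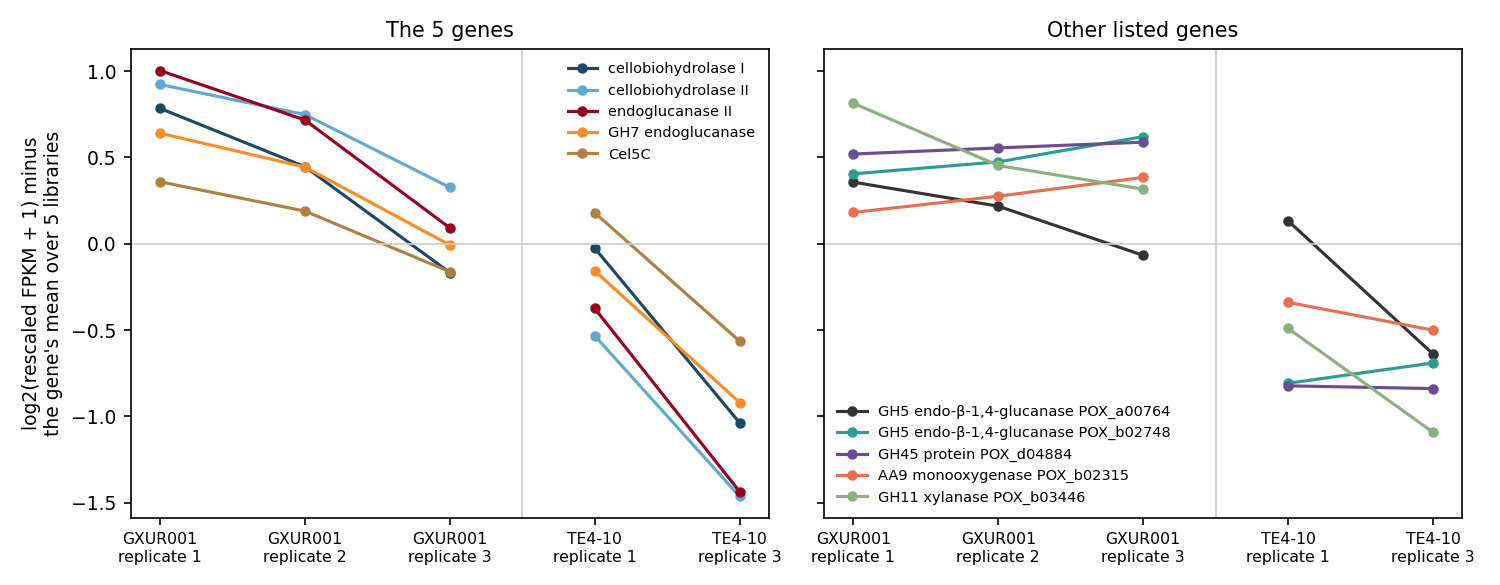
log2(rescaled FPKM + 1) in each library minus the gene's mean over the 5 libraries, for the 5 cellulase genes on the left and for 5 other listed genes on the right; the 3 GXUR001 libraries stand left of the 2 TE4-10 libraries, and lines only join the libraries of 1 strain for 1 gene. Each of the 5 genes is highest in replicate 1 and lowest in replicate 3 of its strain, while POX_d04884, POX_b02748 and POX_b02315 are lowest in GXUR001 replicate 1.

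A further 14 genes, of cellulose and hemicellulose breakdown and of cellodextrin transport, were taken from the functions given in the study's table of changed genes. Only its part with IDs POX_a to POX_d was used, so such genes with other IDs are missing here. The list is not complete within that part either, as the α-L-arabinofuranosidase gene POX_c03492 is not in it. Since that table was made from these samples, the list is not independent evidence of a direction. With limma at an adjusted p under 0.05, 6 of the 14 were higher in GXUR001, 2 were lower and 6 were not called. Over all 9636 genes tested, 9.74% were called higher and 8.08% lower (939 and 779 genes). With FPKM as deposited, 4 of the 14 were higher and 4 lower, beside 463 genes higher and 2198 lower over all genes. The median log2 fold change was 0.56 for the 14 genes, against 0.00 over all genes, a value that the rescaling itself brings about. As deposited the median over all genes was −0.26.

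Of 3 further listed endoglucanase genes, 2 rose in GXUR001. POX_d04884, a family GH45 protein with a cellulose-binding module, had 3635, 3904 and 4320 FPKM in GXUR001, against 1875 and 1781 FPKM in TE4-10, and its log2 fold change was 1.38 (standard error 0.11, limma adjusted p = 0.0064). POX_b02748, of family GH5, had 400, 439 and 526 FPKM in GXUR001, against 225 and 234 FPKM in TE4-10, and a log2 fold change of 1.25 (standard error 0.11, limma adjusted p = 0.0067). Their TE4-10 libraries lay closer together than those of any of the 5 genes, and both were lowest in GXUR001 replicate 1 and highest in GXUR001 replicate 3. POX_a00764, a GH5 endoglucanase gene with a higher FPKM than cellobiohydrolase I in every library, had 7462, 7100 and 6303 FPKM in GXUR001, against 8357 and 4704 FPKM in TE4-10, and was not called (log2 fold change 0.42, limma adjusted p = 0.32). It had the library order of the 5 genes, as did POX_b03446, POX_b01946 and POX_c04047, 4 of the 14 in all.

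The AA9 lytic polysaccharide monooxygenase POX_b02315, which oxidises cellulose chains, had 1992, 2228 and 2599 FPKM in GXUR001, against 1817 and 1560 FPKM in TE4-10. It rose by 0.70 on the log2 scale (standard error 0.12, limma adjusted p = 0.022), and as deposited by 0.42, where it was not called. The expansin-like gene POX_a00405, of a family known for loosening cell walls without hydrolysis, had 83.4, 87.9 and 91.8 FPKM in GXUR001, against 164 and 118 FPKM in TE4-10, and was not called (log2 fold change −0.39, limma adjusted p = 0.11). As deposited it was called lower, at −0.66. Neither of the listed β-glucosidase genes was called. POX_a00456 had 7.35, 9.06 and 5.92 FPKM in GXUR001, against 4.42 and 4.46 FPKM in TE4-10 (log2 fold change 0.85, limma adjusted p = 0.055). POX_a00961 had 42.1, 44.0 and 57.1 FPKM in GXUR001, against 37.3 and 55.2 FPKM in TE4-10, which overlap.

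All 3 listed xylanase genes, whose products cut the xylan that coats cellulose fibres, rose in GXUR001. The GH11 xylanase gene POX_b03446 had 1193, 973 and 957 FPKM in GXUR001, against 632 and 399 FPKM in TE4-10, and a log2 fold change of 1.32 (standard error 0.24, limma adjusted p = 0.023). The GH30 gene POX_c03490 had 525, 546 and 527 FPKM in GXUR001, against 410 and 236 FPKM in TE4-10 (log2 fold change 1.05, limma adjusted p = 0.035), and was not called as deposited, at 0.77. The third, POX_a00512 of family GH11, was far less abundant, with 37.3, 35.2 and 35.7 FPKM in GXUR001, against 18.6 and 27.4 FPKM in TE4-10 (log2 fold change 0.92, limma adjusted p = 0.033). The mannanase gene POX_b01946 had 5207, 5030 and 4369 FPKM in GXUR001, against 5395 and 3691 FPKM in TE4-10, and overlapped between the strains.

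The listed cellodextrin transporter genes, for uptake of the sugars that cellulases release, had the opposite direction. POX_c04185 had 791, 792 and 688 FPKM in GXUR001, against 2084 and 1416 FPKM in TE4-10, and fell by 0.91 on the log2 scale (standard error 0.20, limma adjusted p = 0.036). POX_a00594 had 11.8, 12.9 and 11.0 FPKM in GXUR001, against 28.1 and 23.7 FPKM in TE4-10, and fell by 0.79 (standard error 0.14, limma adjusted p = 0.023). POX_c04047 had 2685, 2535 and 2188 FPKM in GXUR001, against 5928 and 3528 FPKM in TE4-10. It was below TE4-10 in every GXUR001 library but was not called (log2 fold change −0.62, limma adjusted p = 0.15), whereas as deposited it was called lower, at −0.89.

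These calls depended on single libraries. Without GXUR001 replicate 2 none of the 14 genes was called by limma (9 at an unadjusted p under 0.05), and the calls were 2 without GXUR001 replicate 1, 3 without GXUR001 replicate 3 and 5 without TE4-10 replicate 1, each of them higher and 0 lower. Both transporter calls, POX_c04185 and POX_a00594, were thus lost in 4 of the 5 fits that left out a library, and held only without TE4-10 replicate 3, where 5 genes were called higher and 3 lower.

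**Figure D5:**
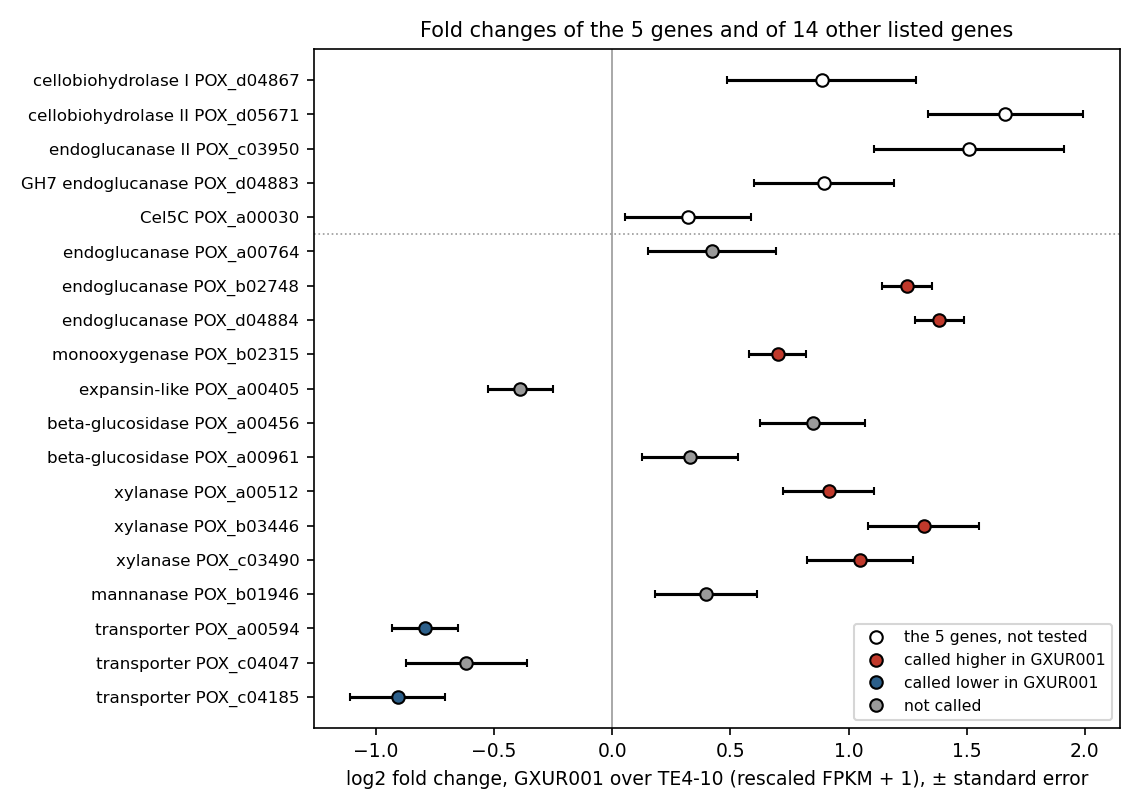
log2 fold change, GXUR001 over TE4-10, with its standard error, for the 5 cellulase genes (open circles, not tested) and the 14 other listed genes (red, called higher in GXUR001; blue, called lower; grey, not called). Cellobiohydrolase II at 1.66 and endoglucanase II at 1.51 have the highest estimates of the 19, with standard errors of 0.33 and 0.40, while POX_d04884 at 1.38 and POX_b02748 at 1.25 have standard errors of 0.11.

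Among 1874 annotated genes with a mean of at least 100 FPKM, the 5 outside the set whose profiles lay nearest to the mean profile of the cellulase genes were POX_a01234, POX_c03492, POX_b02129, POX_d06083 and POX_c04725. Nearness was the mean absolute difference of centred log2 values over 5 libraries. POX_a01234, a hypothetical protein gene, was nearest at 0.075, with 545, 468 and 363 FPKM in GXUR001, against 420 and 204 FPKM in TE4-10. POX_c03492, annotated as an α-L-arabinofuranosidase, an enzyme that trims side chains of xylan, followed at 0.092, with 1583, 1495 and 1228 FPKM in GXUR001, against 1031 and 523 FPKM in TE4-10. The other 3 lay at 0.124 to 0.139. Of the cellulase genes themselves, the GH7 endoglucanase at 0.076 and cellobiohydrolase I at 0.098 lay near their common mean, and endoglucanase II at 0.218, cellobiohydrolase II at 0.292 and Cel5C at 0.352 lay farther off. The likeness over so few libraries is given as a description only.

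The 5 genes do not sit side by side. In the gene order of assembly ASM172317v3, used only for which genes neighbour each other, cellobiohydrolase I and the GH7 endoglucanase were separated by 15 genes, and of the 20 genes within 2 positions of any of the 5, 3 were called higher by limma, 2 lower and 15 not, beside 9.74% higher and 8.08% lower over all genes. With so few neighbours, nothing is read from these counts. Next to the GH7 endoglucanase stood POX_d04884, the GH45 gene described above. Beside cellobiohydrolase I, the hypothetical protein genes POX_d04868 and POX_d04869 rose in GXUR001. POX_d04868 had 56.4, 75.5 and 77.1 FPKM in GXUR001, against 38.5 and 42.2 FPKM in TE4-10 (log2 fold change 1.03, limma adjusted p = 0.012). POX_d04869 had 76.4, 84.0 and 87.2 FPKM in GXUR001, against 34.3 and 31.3 FPKM in TE4-10 (log2 fold change 1.57, limma adjusted p = 0.0031).

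Neighbours of cellobiohydrolase II, endoglucanase II and Cel5C fell or were not called. POX_d05672, beside cellobiohydrolase II, had 3.65, 3.43 and 4.45 FPKM in GXUR001, against 10.2 and 8.54 FPKM in TE4-10, and fell by 0.86 on the log2 scale (limma adjusted p = 0.023). POX_c03951, beside endoglucanase II, had 5.39, 4.68 and 3.26 FPKM in GXUR001, against 97.0 and 18.8 FPKM in TE4-10, and fell by 2.78 on the log2 scale (standard error 0.66, limma adjusted p = 0.043). Its TE4-10 libraries differed widely from each other, as did those of the next gene, POX_c03952, which had 9.59, 9.68 and 9.59 FPKM in GXUR001, against 215 and 34.5 FPKM in TE4-10 and was not called (limma adjusted p = 0.052). None of the 4 neighbours of Cel5C was called.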

How the data were processed

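RNA-seq of *P. oxalicum* mycelium was analysed from per-library tables of FPKM, which the authors computed and deposited per gene. The submitters' processing notes name bcl2fastq and HISAT2; the paper names strain HP7-1 for the genome. Versions, the counting tool, its use of strand and the assembly are not given in the sources used here. The paper states 1 rounded number of reads for all samples; counts per gene and exact totals per library did not come with the FPKM values used here, so no counting intervals are given.

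Groups followed the genotype in the labels (the *PoxCxrC* deletion was not checked): GXUR001, 3 libraries; TE4-10, 2 libraries, with TE4-10 replicate 2 not analysed here. FPKM was divided by a library factor (the median over genes of FPKM relative to each gene's geometric mean), and log2(value + 1) was fitted with limma 3.58.1 in R 4.3.3 (two-sided, moderated with a trend, Benjamini-Hochberg over 9636 genes with a mean of at least 1 FPKM, called at adjusted p under 0.05). With 3 against 2 libraries, no exact permutation test of 1 gene could go below 0.1 one-sided. The fit was also run on simulated data with independent noise of the same size for every gene. Genes here differ in spread and the cellulase genes vary together, so that run does not show how far the calls hold here. Shares, ranks and ratios were computed in Python 3.11.15 from FPKM as deposited.

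The text names the 5 genes, *PoxAmyR*, actin, 14 listed genes, the 5 nearest profiles and the genes beside each of the 5. The genes and lists were chosen with earlier results of these data known. Function names came from the paper's supplementary table and gene order from the RefSeq gene table of ASM172317v3, which matched 9718 annotated genes. The authors' fold changes and p-values were not used. Protein and promoter sequences and a wider list by product name were not analysed here. Alternatives covered scaling (as deposited, upper quartile, actin), a pseudocount of 0.1, no filter or a mean of at least 10 FPKM, no trend, the replicate number as a block, annotated genes only, and each library left out.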

Additional observations from a re-analysis of the deposited data

How the results depend on the processing

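The direction of 4 of the 5 cellulase genes held under every alternative, with log2 fold changes of 0.38 to 1.39 for cellobiohydrolase I, 1.20 to 2.12 for cellobiohydrolase II, 0.98 to 2.03 for endoglucanase II and 0.51 to 1.27 for the GH7 endoglucanase; the ends of each range came from leaving out TE4-10 replicate 3 and TE4-10 replicate 1. Cel5C ranged from −0.053 (without TE4-10 replicate 3) to 0.69, and the median of the 5 from 0.51 to 1.39. The log2 difference of the ratio of the GH7 endoglucanase to cellobiohydrolase I, 0.01 with all libraries, ranged from −0.11 to 0.14 and was −0.07 without GXUR001 replicate 3 and −0.11 without TE4-10 replicate 1. That of cellobiohydrolase II to Cel5C ranged from 1.25 to 1.44.

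Over all genes, 1718 were called, 939 higher and 779 lower in GXUR001; with FPKM as deposited it was 2661, 463 higher and 2198 lower, a scaling that shifts all genes down together. Leaving out 1 library gave 17 (without GXUR001 replicate 2) to 1836 genes, and 0 (without GXUR001 replicate 2) to 8 of the 14 listed genes; the cause was not tested. As deposited, the listed genes called were 4 higher and 4 lower. With the replicate block no gene was called by limma (0, against 2476 at an unadjusted p under 0.05) and 0 listed genes (10 unadjusted). Whether same-numbered libraries were paired was not settled. Their deviations correlated at −0.0066 and 0.037 across all genes, which cannot decide it for a few genes. The 5 cellulase genes had 1 replicate order in both strains, and the block lowered all their standard errors. With the block these were 0.14 for cellobiohydrolase I, 0.17 for cellobiohydrolase II and 0.13 for each endoglucanase gene. Without it they were 0.40 and 0.33 for the cellobiohydrolases, and 0.40, 0.30 and 0.27 for endoglucanase II, the GH7 endoglucanase and Cel5C. In comparisons chosen after seeing the data, 1218 genes were above both TE4-10 libraries in every GXUR001 library as deposited, against 2572 rescaled, and leaving out the 3 most abundant rows outside the annotation made the share of the 5 genes 1.72% in GXUR001 and 0.878% in TE4-10. Exact totals per library were not used here, and 2 TE4-10 libraries limit every estimate.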
